A study of Mus musculus with 16 samples.

Results

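The cytosolic ribosomal protein genes of mouse microglia are described here over 16 mRNA libraries. Members were the rows whose symbol is Rpl or Rps followed by a number, with an optional final a, x, l or l1, together with Rplp0, Rplp1, Rplp2 and Rpsa. This rule took 84 of the 35869 genes in the table, 52 of the large subunit and 32 of the small subunit, and used no measured value. It left out 12 rows with a pseudogene suffix and the S6 kinases. Of the 84 genes, 83 are protein coding in RefSeq and Rps4l is a transcribed pseudogene there.

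The libraries came from wild type male C57/Bl6 mice, young at 2 months or old at 18 months, with 3 mice pooled per replicate. The study's methods instead name 4 young and 4 old mice for this sort. They also state that old mice came from a National Institute of Aging colony, while young ones were bred locally or taken from that institute. The source of the mice may thus differ between the ages, and its part was not tested. Microglia, the resident phagocytes of the brain, were incubated in vitro with 2.5 µM amyloid-β 1-42 for 2 h and sorted into cells that carried the peptide (Aβ42+) and cells that did not (Aβ42-). This gave 4 groups of 4 libraries, namely both sorts of the young and both sorts of the old mice, and same-numbered Aβ42+ and Aβ42- libraries were 2 sorts of 1 pool. The sample labels list the peptide for Aβ42+ samples only, while the treatment text gives it for all.

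Ribosomal proteins assemble with ribosomal RNA in the nucleolus, those named RPS into the small subunit, which reads the mRNA, and those named RPL into the large subunit, which joins amino acids. Nearly every one is needed in one copy per ribosome, so their genes are expressed together in all growing and resting cells. Their mRNAs usually begin with a cytosine followed by a run of pyrimidines, the terminal oligopyrimidine tract, through which the mTOR pathway and the RNA-binding protein LARP1 set how strongly they are translated. mRNA levels as measured here do not show that translational step.

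Sequence around the start sites was read from the RefSeq promoter table (GRCm38.p6) to look for such runs near annotated starts. A run of at least 8 bases of C or T that begins with C, searched on the gene's strand within 50 bases on either side of an annotated start, was found in 53 of the 63 members with a window (84.1%). Among all 27025 genes with a window it was found in 8645 (32%). The following windows hold a run in the S6 kinase substrate (Rps6) and in abundant members (Rpl4, Rpl35). Rps15a is printed because its old libraries lay below the young ones in each sort as deposited. The others are 3 paralogues (Rps27l, Rpl22l1, Rpl39l) with the main copies of the first pairs (Rps27, Rpl22). Capitals mark the run, and each line reads 5′ to 3′ on the gene's strand.
Rps6, chr4:86857354-86857373, minus strand: tcgggCCTCTTTTTCgtgac
Rpl4, chr9:64173408-64173432, plus strand: cgtggCCTTCTCCTCTCCCCgtcat
Rpl35, chr2:39005116-39005143, minus strand: ccccgCCCTTTCCTCTTTCTCTCgaacc
Rpl22, chr4:152325682-152325705, plus strand: tctgaCTCCTCCCTTTCCCgacag
Rps15a, chr7:118116148-118116167, minus strand: gcccaCTCTCTTTCTgccat
Rps27, chr3:90213637-90213655, minus strand: tttcgCTCCTTTCCggcgg
Rps27l, chr9:66946059-66946077, plus strand: ctccaCTCCTCTCCactcc
Rpl22l1, chr3:28805506-28805523, plus strand: ccgttCTCTTCCCacggc
Rpl39l, chr16:10170197-10170215, plus strand: cactgCCTCTCCCTagctc
In Rps6 the run starts 1 base before the annotated start, whereas in Rpl4 it starts 26 bases after it. In Rps15a, Rps27l, Rpl39l and Rpl22 it starts 15, 22, 26 and 39 bases before the annotated start. These runs also end before that start, so they do not show a terminal tract there. A run in such a window is a match of letters and was not read as a start of transcription.

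All values are in TPM, a transcript abundance which the authors scaled by gene length and library total. Comparisons of levels between genes carry the limits of annotated length, duplicate removal and shared sequence described below. The depth per library is unknown, and no counting interval can be given. Over the 16 libraries the means of the 84 members had a median of 318 TPM and spanned 151-fold. Of the members, 26 averaged 500 TPM or more and 13 averaged 100 TPM or less. The median protein-coding gene of the table averaged 8.87 TPM.

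Rpl10, Rplp1, Rpl4 and Rpl8 were the 4 highest members. Rpl10, which completes the large subunit and helps form the peptidyl transferase centre, averaged 751 ± 82.4 TPM (SD over 16 libraries). Rplp1, an acidic protein of the lateral stalk that recruits elongation factors, averaged 735 ± 83.6 TPM. Its stalk partners Rplp0 and Rplp2 averaged 609 ± 54.7 and 287 ± 27.4 TPM. Rpl4 averaged 720 ± 44.8 TPM and Rpl8 712 ± 67.7 TPM, so that these neighbours in the order did not differ beyond their spread. Along the whole order of 84, the gap to the next gene was larger than the SD of the difference over the 16 libraries for 6 of 83 neighbouring pairs, 3 of them among the 7 lowest genes.

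Other well-known members were spread over the order. Rpsa, which also occurs at the cell surface as a laminin receptor, averaged 346 ± 33.5 TPM. Rps6, the substrate of the S6 kinases, averaged 358 ± 31.7 TPM, and Rps3, which sits at the mRNA entry channel, averaged 352 ± 33 TPM. Rps27a, made as a fusion with ubiquitin, averaged 216 ± 21.2 TPM. Rpl5 and Rpl11, which bind MDM2 when ribosome assembly is disturbed, averaged 216 ± 20.8 and 246 ± 21.3 TPM. Rpl13a averaged 604 ± 41.1 TPM, Rpl41, the shortest of the ribosomal proteins, 581 ± 52.6 TPM, and Rps14 and Rps19, both mutated or lost in human anaemias, 581 ± 79 and 147 ± 17.7 TPM.

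The 5 lowest members were Rpl3l with 4.96 ± 3.06 TPM, Rpl39l with 15 ± 11.1 TPM, Rpl22 with 27.1 ± 2.82 TPM, Rpl10l with 28 ± 23.3 TPM and Rpl32l with 32.2 ± 11.8 TPM. Rpl3l is known from heart and skeletal muscle and Rpl10l and Rpl39l from the testis. Rpl22 stands apart from the other 4, since it is the main copy of its pair and its within-group coefficient of variation averaged 8.37%, against 46.3% for Rpl3l and 78.2% for Rpl10l. Rps24, a small subunit protein without a paralogue in the rule, was likewise low at 34.2 ± 2.91 TPM. The bases covered by its exons in GENCODE, which is not the annotation the authors counted over, are given below.

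**Figure D1:**
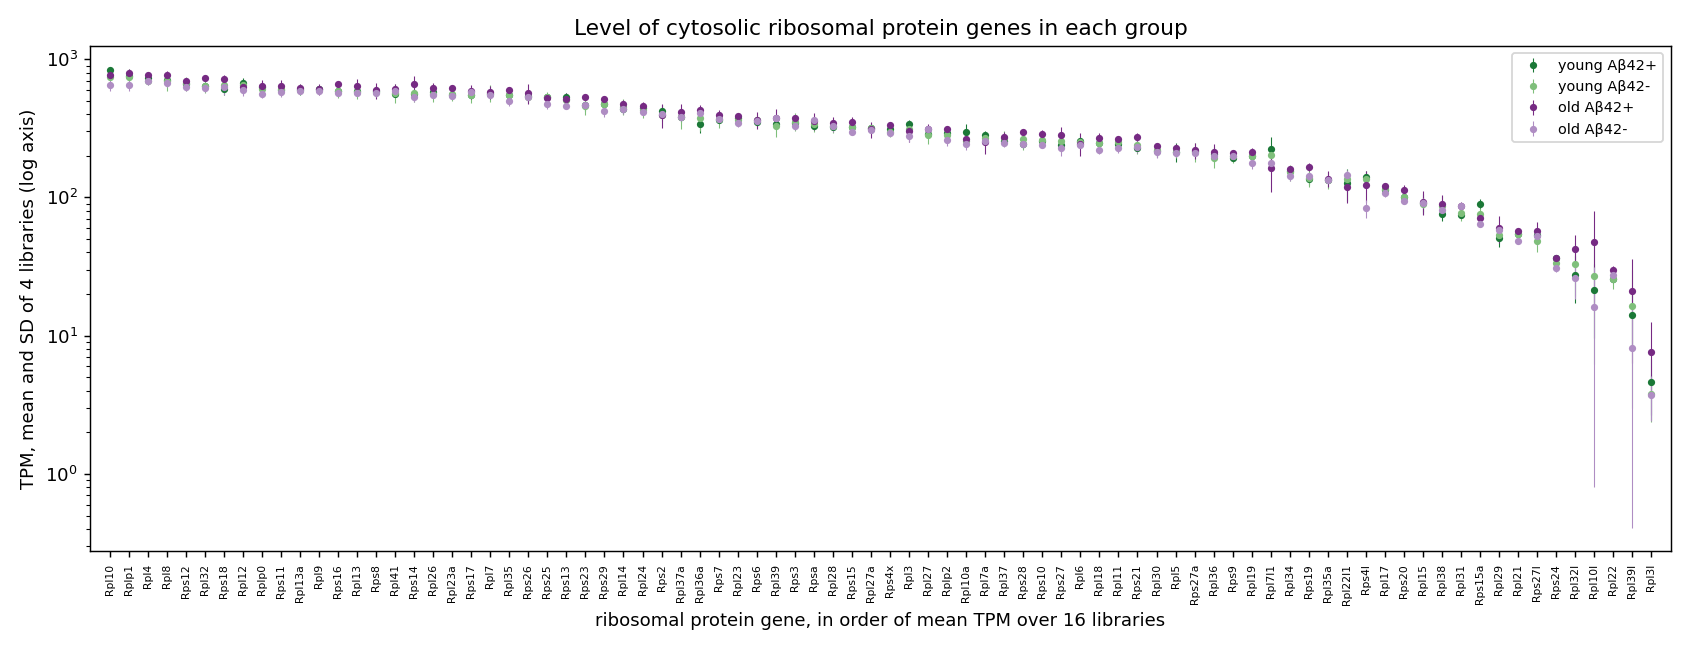
TPM of the genes named on the horizontal axis on a log scale, as the mean of 4 libraries in each group (points) with its SD (lines, cut off at 95% of the mean below), ordered by the mean over all 16 libraries. The order falls from Rpl10 at 751 TPM to Rpl3l at 4.96 TPM, and the 4 groups lie close together except in the lowest genes.

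The order of the members was nearly the same in every library, with a Spearman correlation between libraries of 0.941 to 0.995 over 120 pairs, a description across genes of 1 table. Their within-group coefficient of variation had a median of 8.46% over the 84 genes, from 4.86% to 78.2%, whereas the median over 34492 genes was 58.6%. Most of those genes are expressed at far lower levels than the members.

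Properties of the genes and of the read handling are given here beside these levels. The authors removed duplicate reads from single-end data, which leaves at most 1 read per start position and strand, and the highest protein-coding mean of the table was 1220 TPM, only 1.63-fold above Rpl10. Of the 200 highest protein-coding genes, 28 were members. The members also have many processed copies in the genome. Of the 84, 79 shared at least one 85-base stretch, the length of a read, with an exon of another GENCODE gene, 17 shared 50% or more of such stretches, and the median was 23.5%. Members that shared 50% or more had a median level of 388 TPM and the others 309 TPM. Whether reads with several alignments were counted is not given in the sources used here, so the level of such a gene is uncertain. The GENCODE exons of a member covered 1754.5 bases at the median, but 6256 bases in Rps24 and 6270 bases in Rps15a. These values join the exons of all transcripts of a gene. The authors counted over RefSeq genes, so they need not be the lengths that scaled the TPM. Over the members the Spearman correlation of level with exonic bases was -0.09. How far annotated length, duplicate removal or shared sequence set the levels was not tested.

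As deposited, the share of the library taken by the family was similar in all groups. The summed TPM was 29334, 28309, 28103 and 30628 in young Aβ42+ replicates 1 to 4, and 26986, 26020, 30255 and 32650 in young Aβ42- replicates. In old mice it was 30772, 31500, 28660 and 32646 in Aβ42+ and 26778, 27748, 29917 and 26759 in Aβ42- microglia. The groups thus averaged 29093 ± 1156, 28978 ± 3046, 30894 ± 1678 and 27800 ± 1485 TPM (SD, n = 4), that is 2.91%, 2.9%, 3.09% and 2.78% of all TPM. All 4 groups overlapped. With the background level subtracted, the mean was 36880 TPM in old Aβ42+ and 28860 TPM in old Aβ42- microglia, further apart than as deposited. These groups still overlapped, with 31873 TPM in old Aβ42+ replicate 1 and 32445 TPM in old Aβ42- replicate 3. The part of duplicate removal in the differences between groups was not tested.

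Within pools, the sum of the Aβ42- sort minus that of the Aβ42+ sort was -2347, -2289, 2151 and 2022 TPM in young pools 1 to 4. In the old pools it was -3994, -3752, 1257 and -5887 TPM. The young pools therefore had no common direction, and 3 of the 4 old pools shared one.

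The ratio of small to large subunit TPM, in which the scaling of a library cancels, ranged from 0.668 to 0.723. In the young pools it was 0.668, 0.669, 0.682 and 0.678 in the Aβ42+ sort and 0.676, 0.692, 0.697 and 0.689 in the Aβ42- sort, higher in the latter in each pool. In the old pools it was 0.688, 0.688, 0.723 and 0.694 in the Aβ42+ sort and 0.685, 0.688, 0.684 and 0.685 in the Aβ42- sort, lower in the latter in each pool, although in pool 2 the difference was -0.00076. The mean difference between sorts was 0.0146 in young and -0.0133 in old pools. Without replicate 3 it was 0.0142 and -0.0045. The 0.723 of old Aβ42+ replicate 3 was the highest of the 16 ratios, and that library also had the highest background level, defined with the low-level copies.

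**Figure D2:**
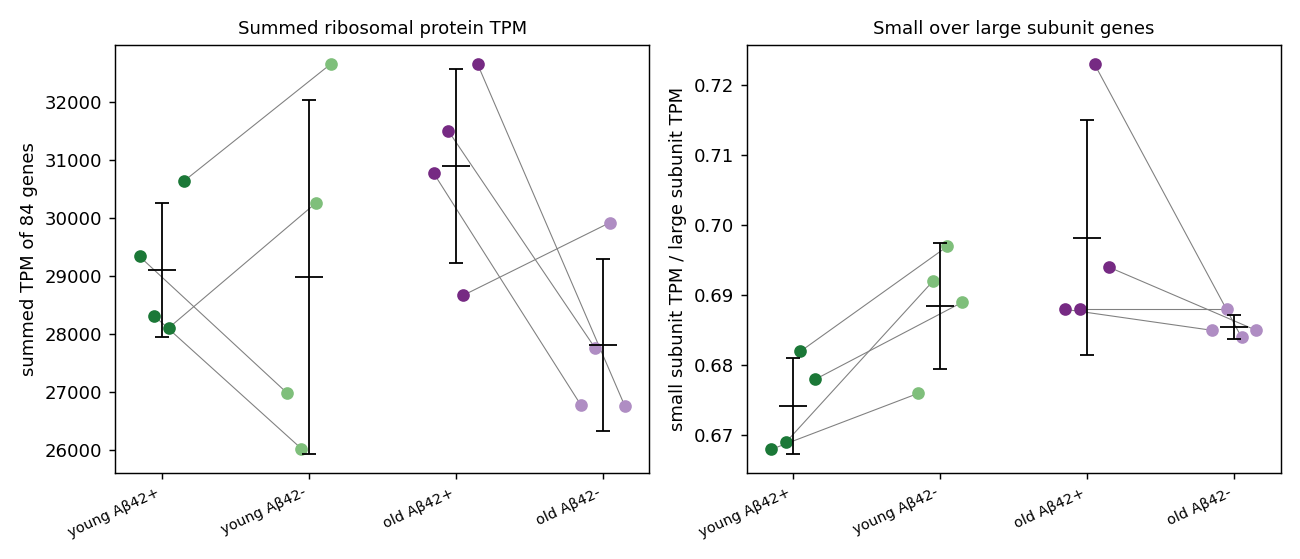
Summed TPM of the 84 genes (left) and the ratio of summed small subunit to summed large subunit TPM (right) in each library, with the mean and SD of 4 libraries per group in black and grey lines joining the 2 sorts of a pool. The axes do not start at 0. The sums overlap between all groups, and the ratio is higher in the Aβ42- sort of all 4 young pools.

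Each of the 4 comparisons was tested across all expressed genes with limma on log2(TPM + 1), which understates the change of low genes, and 0.05 was the highest adjusted p (Benjamini-Hochberg, over all genes) at which a gene counted as called. All 84 members passed the filter of 1 TPM in at least 4 of the 8 libraries in each comparison. In bulk samples fewer cells of a type and less RNA per cell cannot be told apart.

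The libraries differed between groups in markers of other cells, and these values stand beside all the results that follow. All 10 microglial markers, among them P2ry12, Tmem119 and Cx3cr1, were above 0 in every library, with a summed TPM of 2560 ± 131 and 2260 ± 28.9 in the Aβ42+ and Aβ42- sorts of young mice and 1820 ± 295 and 1350 ± 319 in those of old mice. The 8 neutrophil markers summed to 2960 ± 358, 6700 ± 897, 4860 ± 1240 and 7240 ± 965 TPM in the same order. The 5 granulocyte precursor markers summed to 101 ± 32.2, 1500 ± 325, 402 ± 311 and 2690 ± 609 TPM and the 7 cycling genes to 115 ± 22.5, 261 ± 38.7, 285 ± 43.4 and 746 ± 274 TPM. T and NK cell markers summed to 32 ± 19.2, 470 ± 79.1, 51.4 ± 23.2 and 383 ± 71.5 TPM, B cell markers to 41.5 ± 17.5, 83.6 ± 31, 115 ± 63.6 and 221 ± 96.4 TPM, monocyte or macrophage markers to 273 ± 48.2, 271 ± 29.5, 430 ± 126 and 384 ± 50.8 TPM and red cell genes to 1190 ± 450, 2610 ± 1620, 1310 ± 305 and 1540 ± 236 TPM. Among brain cells, neuron markers summed to 62.2 ± 35.3, 76.8 ± 44.9, 103 ± 53.4 and 25.1 ± 18.1 TPM and choroid plexus genes to 209 ± 82.8, 241 ± 377, 392 ± 369 and 56.8 ± 17.8 TPM. The lists for oligodendrocytes, astrocytes and endothelium lay between 11.2 and 85.3 TPM in every library. Some sums join markers that differed. In the monocyte or macrophage list, from young Aβ42+ to Aβ42- cells, Ly6c2 rose from 92.5 to 183 TPM and Plac8 from 16.4 to 18.7 TPM. F13a1 fell from 70.3 to 30.3, Mrc1 from 42 to 15.3, Pf4 from 35.2 to 8.79 and Ccr2 from 16.7 to 14.9 TPM. The T and NK cell sum of young Aβ42- cells was mostly Gzma (275 TPM) and Nkg7 (176 TPM), with Cd3e at 5.43 TPM. The part of other cells in the ribosomal protein levels was not tested.

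The first comparison asked how old and young microglia that had taken up Aβ42 differed. None of the 84 members was called in old against young Aβ42+ microglia by limma, where 0.0268% of all 33578 genes were called, and 1 member had an unadjusted p under 0.05, against 9.22% of all genes. The members' log2 fold changes had a median of 0.10 and the median over all genes was 0.38. For 79 of the 84, the 95% interval lay within a 2-fold change in either direction, a log2 fold change of 1, and for 57 it lay within 0.5.

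In this comparison 10 members were higher in every old than in every young library (11.9% of the 84), against 2.85% of all genes. They were Rpl31, Rpl35, Rplp2, Rps9, Rps16, Rps18, Rps19, Rps21, Rps23 and Rps28, 7 of them of the small subunit. Rps19 stood at 142, 127, 122 and 155 TPM in the young and 163, 156, 167 and 183 TPM in the old replicates, a log2 fold change of 0.29 (SE 0.14, adjusted p = 0.56). Rplp2 stood at 296, 291, 281 and 295 TPM in young and 305, 311, 321 and 320 TPM in old replicates. The groups were separate for both genes, but by little. The count of 10 was 0 with upper quartile factors and with median-of-ratios factors and 14 after quantile normalization, where Rps19 was still separate and Rplp2 was not.

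One member was lower in every old library (1.19%, against 2.65% of all genes), Rps15a, a small subunit protein, on chr7:118104374-118116147 (RefSeq gene 267019, GRCm38.p6). Its TPM was 88.2, 88.8, 81.7 and 99.2 in young and 74.2, 70.7, 60.7 and 76.4 in old Aβ42+ replicates. The log2 fold change was -0.34 (SE 0.14, unadjusted p = 0.0377, adjusted p = 0.524). The exact two-sided permutation test gave 0.0286, the smallest p that 4 libraries against 4 allow. Every gene without overlap takes this value, so it only restates the separation. Its groups overlapped under each of those 3 scalings. Rpl7l1 had the lowest log2 fold change, -0.50, with an interval of -1.17 to 0.17, and Rps4l the third lowest, -0.21. The highest were Rpl10l with 1.09, Rpl32l with 0.65 and Rpl3l with 0.55, all with intervals that included 0.

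The same question in cells without Aβ42 gave 1 call. In old against young Aβ42- microglia, 0 members were called higher, against 1.73% of all 31982 genes, and 1 was called lower, Rps4l, against 0.416%. Together 2.15% of all genes were called. Of the members, 2 had an unadjusted p under 0.05, against 24% of all genes. A log2 fold change above 0 was found for 21 members and one below 0 for 63, with a median of -0.05 and a median over all genes of -0.56. The interval lay within a log2 fold change of 1 for 82 of 84 members and within 0.5 for 79.

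Rps4l is a single-exon copy of the small subunit gene Rps4x. It lies on chr6:148354656-148355596 (GRCm38.p6, RefSeq gene 66184), where GENCODE annotates a transcribed processed pseudogene, while Rps4x has up to 7 exons on chrX:102184941-102189391. In the 789 aligned bases, 632 were identical (80.1%), and no 85-base stretch of Rps4l occurred in Rps4x. A 60-base part of the alignment is printed to show how positions tell the 2 apart, with the 19 differing bases in capitals, read from GENCODE transcripts on GRCm38. This part is more diverged (31.7%) than the whole alignment, where 157 of 789 bases differed (19.9%).
Rps4x, chrX:102186413-102186472, minus strand: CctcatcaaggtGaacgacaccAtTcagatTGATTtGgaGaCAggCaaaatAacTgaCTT
Rps4l, chr6:148355165-148355224, plus strand: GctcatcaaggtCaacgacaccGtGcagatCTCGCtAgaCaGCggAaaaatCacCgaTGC
With 38 of its 859 stretches of 85 bases (4.42%) found in 1 other gene, most of Rps4l is separable from other genes at this read length.

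The TPM of Rps4l was 149, 144, 120 and 150 in young Aβ42+ replicates 1 to 4 and 130, 121, 146 and 143 in young Aβ42- replicates. It was 140, 80.8, 124 and 153 in old Aβ42+ and 84.8, 67.2, 85.3 and 98 in old Aβ42- replicates. All 4 old Aβ42- libraries were below all 8 young ones, while old Aβ42+ replicate 2 stood with the old Aβ42- libraries. From young to old Aβ42- microglia the mean fell from 135 ± 11.7 to 83.8 ± 12.7 TPM, a log2 fold change of -0.69 (SE 0.13, adjusted p = 0.0433). The exact permutation p of 0.0286 only restates that these groups did not overlap. Blocking on replicate number, the adjusted p was 0.0274 and 12.2% of all genes were called. In this comparison the block joins young and old pools, which are different mice. The call was near the threshold, and over 21 other settings the adjusted p ranged from 0.0201 to 0.401, with 10 of them calling the gene and a log2 fold change between -0.87 and -0.32.

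Rps4x, the main copy, overlapped between the ages. It stood at 286, 271, 302 and 333 TPM in young Aβ42- and 288, 295, 309 and 282 TPM in old Aβ42- replicates. The ratio of Rps4l to Rps4x, free of library scaling, averaged 0.454 ± 0.0507 and 0.454 ± 0.0228 in Aβ42+ and Aβ42- cells of young mice and 0.373 ± 0.0891 and 0.287 ± 0.0494 in those of old mice. In old Aβ42- libraries it was 0.295, 0.228, 0.276 and 0.347, below each of the 8 young ratios, the lowest of which was 0.379. Its lowest old Aβ42+ value was 0.242, in replicate 2, the pool whose Aβ42- sort also had the lowest value of its group.

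**Figure D3:**
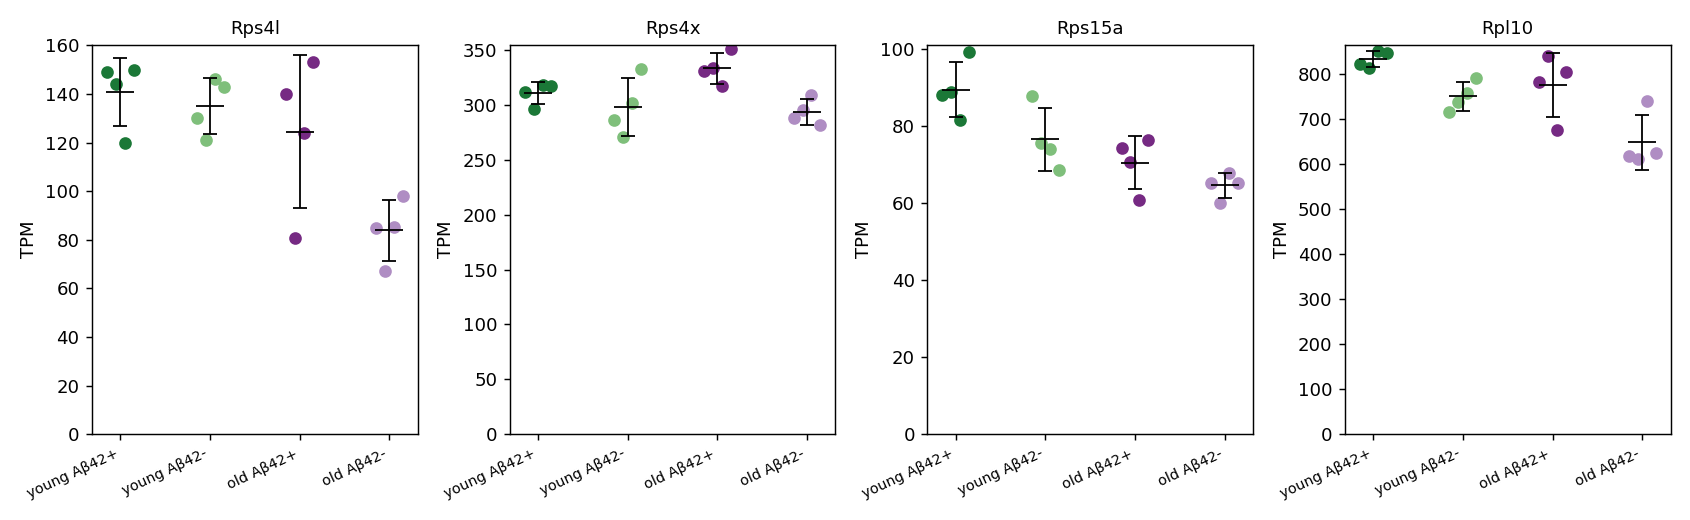
TPM of Rps4l, Rps4x, Rps15a and Rpl10 in each of the 16 libraries (points), with the mean and SD of 4 libraries per group in black. Rps4l is below 100 TPM in all 4 old Aβ42- libraries and in 1 old Aβ42+ library, while Rps4x stays between 271 and 351 TPM.

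Rps15a was again lower in every old library, at 87.8, 75.5, 74.1 and 68.7 TPM in the young Aβ42- replicates and 65.1, 60.1, 67.8 and 65.3 TPM in the old ones, with a log2 fold change of -0.24 (adjusted p = 0.23). Rps4l and Rps15a were the 2 members with no overlap and a lower level (2.38%), against 5.07% of all genes, and no member was higher without overlap, against 5.96%. Both were also separate with upper quartile factors and after quantile normalization, and neither was with median-of-ratios factors. Rpl10 stood at 715, 736, 757 and 789 TPM in the young Aβ42- replicates and 617, 610, 738 and 624 TPM in the old ones, so that 1 old library lay among the young ones, with a log2 fold change of -0.21 (adjusted p = 0.192). Without that library, old Aβ42- replicate 3, Rpl10 was called as well as Rps4l. The lowest log2 fold changes were those of Rpl39l, -0.97, and Rpl10l, -0.75, with wide intervals of -2.40 to 0.47 and -3.31 to 1.82. The highest were Rpl39 with 0.22, Rpl31 with 0.19 and Rpl27 with 0.16.

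Over both sorts, 19 members had a higher mean in old than in young microglia in each sort, 15 a lower mean in each, and 50 opposite directions. Among the 15 were Rps4l, Rps15a, Rpl10, Rpl3 and Rps24. Rpl3, which lies near the peptidyl transferase centre, averaged 340 ± 25.7 and 310 ± 18.8 TPM in the 2 sorts of young mice, Aβ42+ first, and 300 ± 47 and 276 ± 25.9 TPM in those of old mice. The members whose TPM followed that of Rps4l most closely over the 16 libraries were Rps15a (Pearson r = 0.66), Rps13 (0.65), Rpl10 (0.60) and Rpl3 (0.58), a description of libraries that share pools and scaling.

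The third comparison asked how Aβ42- and Aβ42+ cells of young mice differed, and here the family was at its flattest. None of the 84 members was called, against 1.67% of all 33281 genes, and none had an unadjusted p under 0.05, against 6.97% of all genes. The log2 fold changes of Aβ42- against Aβ42+ had a median of -0.01, ran from -0.23 to 0.25, and their intervals lay within 0.5 in either direction for 76 members. Rpl10l and Rps15a were the lowest with -0.23 and Rpl10a followed with -0.20. The interval of Rpl10l was wide, -2.43 to 1.97. Its mean TPM went the other way, 26.8 ± 20.6 in Aβ42- against 21.4 ± 11.8 in Aβ42+ cells. Rpl32l with 0.25, Rpl38 with 0.17 and Rpl36a with 0.13 were the highest. Rpl10 alone did not overlap between the sorts, at 821, 812, 850 and 846 TPM in Aβ42+ and 715, 736, 757 and 789 TPM in Aβ42- replicates, which is 1.19% of the members, against 1.6% of all genes in that direction. Its log2 fold change was -0.15 (adjusted p = 0.775), and the exact permutation p of 0.0286 only restates the lack of overlap. Its sorts overlapped with upper quartile or median-of-ratios factors.

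The fourth comparison, Aβ42- against Aβ42+ cells of old mice, gave the widest range. No member was called, although 13% of all 32429 genes were, and 4 members had an unadjusted p under 0.05, against 45.5% of all genes. The median was -0.15, and 77 of the 84 members had a log2 fold change below 0, while the median over all genes was -0.89. The interval lay within a log2 fold change of 1 for 79 members and within 0.5 for 41. The pairing of the 2 sorts of a pool raised the number of called members to 4, all lower in Aβ42- cells, namely Rps4l (adjusted p = 0.0212), Rpl32l (0.0117), Rpl10l (0.00735) and Rpl39l (0.00706). In that fit 57.9% of all genes were called.

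With no overlap, 14 members were lower in Aβ42- cells of old mice (16.7%), close to the 13.8% of all genes in that direction, and none was higher, against 8.12%. The count of 14 was 0 with upper quartile or median-of-ratios factors and 33 after quantile normalization. Among the 14 were Rpl11, Rpl21, Rpl32, Rpl35, Rplp2, Rps4x, Rps10, Rps15, Rps16, Rps19, Rps23, Rps28 and Rps29. Rplp2 stood at 305, 311, 321 and 320 TPM in Aβ42+ and 248, 251, 297 and 246 TPM in Aβ42- replicates, a log2 fold change of -0.27 (adjusted p = 0.156). Replicate 3 was the closest in Rplp2, as in the sums. Rpl22l1 had the highest log2 fold change, 0.33, followed by Rpl7l1 with 0.21 and Rpl7a with 0.05. Rpsa, with 0.03, was at 376, 385, 282 and 383 TPM in Aβ42+ and 351, 371, 371 and 350 TPM in Aβ42- replicates, where only old Aβ42+ replicate 3 stood apart.

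Without both libraries of replicate 3, 26 members were called, all lower in Aβ42- cells, 16 of the large and 10 of the small subunit. The filter stayed at 1 TPM in at least 4 libraries, so 26982 genes were tested, against 32429 with replicate 3. Of these 26982 genes, 23.5% were called lower, and the 26 were 31% of the members. Their log2 fold changes ran from -2.37 to -0.24, and 23 of them averaged at least 100 TPM. They included Rpl10 with -0.39 (adjusted p = 0.0106), Rps28 with -0.35 (0.0167), the stalk proteins Rplp1 with -0.34 (0.0278), Rplp2 with -0.33 (0.0188) and Rplp0 with -0.29 (0.0342), and Rpl11 with -0.28 (0.0336). The count in old mice as deposited thus changed when replicate 3 was left out, which also changed the set of genes tested. The fit without replicate 3 was run on the deposited scale only. With all replicates the members' median was -0.15 on that scale, 0.02 with upper quartile factors and 0.56 with median-of-ratios factors.

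**Figure D4:**
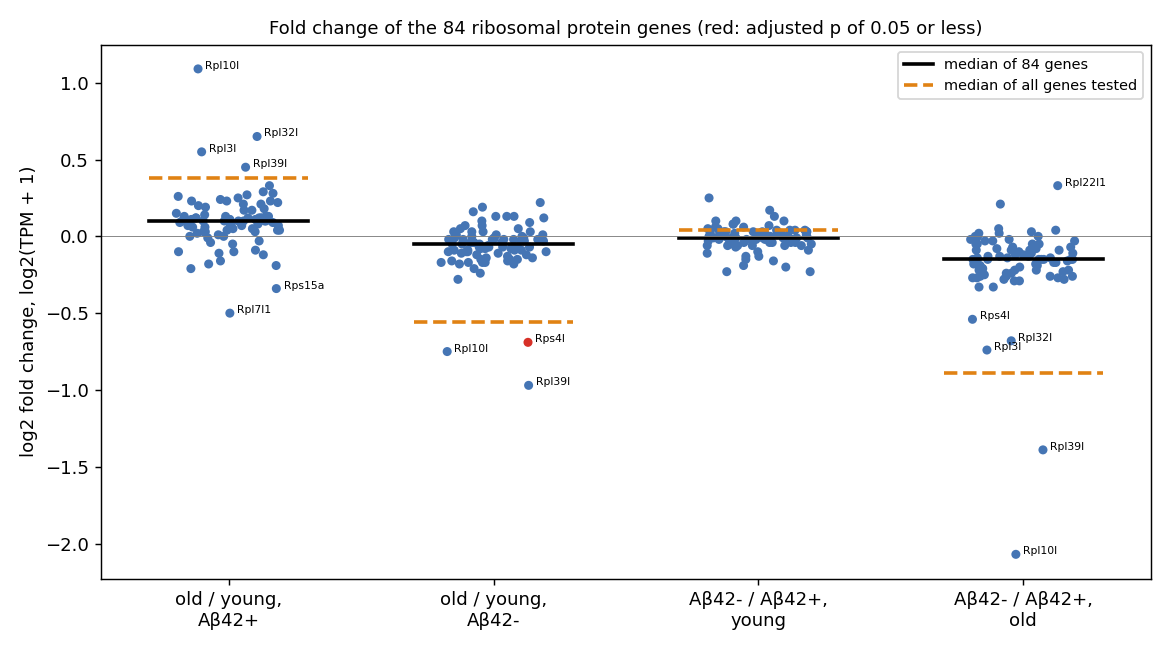
Log2 fold change on log2(TPM + 1) of each of the 84 genes (points) in the 4 comparisons, with the median of the 84 (black) and of all genes tested (dashed). Rps4l in old against young Aβ42- microglia is the only called gene (red), and most members lie close to 0 while the median of all genes shifts from 0.38 to -0.89.

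The direction of the family as a whole depended on the scaling of the libraries. In old against young Aβ42+ microglia the members' median was 0.10 as deposited, -0.13 with upper quartile factors, -0.35 with median-of-ratios factors and 0.24 after quantile normalization, while that of all genes was 0.38, 0.21, 0.03 and -0.00. In Aβ42- against Aβ42+ cells of old mice it was -0.15, 0.02, 0.56 and -0.30, against -0.89, -0.77, -0.40 and -0.01 over all genes. In old against young Aβ42- microglia it was -0.05, -0.03, 0.32 and -0.12, and in the young sorts it stayed between -0.09 and 0.02 under these 4 scalings. No direction is therefore given for the family in any comparison. Under the 3 other scalings 0 members were called in old against young Aβ42+ microglia and in the sorts of either age.

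The interaction of age and uptake, the difference between the age changes of the 2 sorts, was called for 0 of the 84 members in 1 limma model of 16 libraries, where 0.0116% of all 34492 genes were called. The smallest adjusted p among members was 0.247, and 2 members had an unadjusted p under 0.05, against 20.1% of all genes. These were Rps28, with a log2 difference of -0.38 (interval -0.74 to -0.02), and Rps27 with -0.41 (interval -0.82 to -0.00). With the pools as a block 1 member was called, Rpl39l, and 36.9% of all genes. With the replicate number as the block 5 members were called (Rps27, Rpl32l, Rpl10l and Rpl39l among them) and 41.7% of all genes. That block also joins young and old pools, which are different mice.

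The paralogues in the rule were expressed at lower levels than their main copies in 7 of 8 pairs. Over 16 libraries the main copies averaged 307 (Rpl3), 566 (Rpl7), 751 (Rpl10), 661 (Rpl32), 355 (Rpl39), 251 (Rps27) and 309 (Rps4x) TPM. Their copies stood at 4.96 (Rpl3l), 192 (Rpl7l1), 28 (Rpl10l), 32.2 (Rpl32l), 15 (Rpl39l), 52.8 (Rps27l) and 121 (Rps4l) TPM. Rpl22 was the reverse, at 27.1 TPM below its paralogue Rpl22l1 at 132 ± 24.7 TPM. Of the 85-base stretches of Rpl22l1, 38.8% occurred in 1 other gene, against 0.404% for Rpl22, so the level of Rpl22l1 is the less certain. Rpl10a, a separate large subunit protein despite its name, averaged 267 TPM. Rpl36a averaged 388 TPM, and its intronless relative Rpl36al, which the rule leaves out, averaged 322 ± 31 TPM in the young and 370 ± 90.1 TPM in the old Aβ42+ group.

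The identity of the coding sequences, computed from GENCODE transcripts, was 59.9% for Rpl7 and Rpl7l1, 70.2% for Rpl22 and Rpl22l1, 74.3% for Rpl3 and Rpl3l and 75.3% for Rps27 and Rps27l. It was 84.8% for Rpl10 and Rpl10l, 85.3% for Rpl39 and Rpl39l and 97.2% for Rpl32 and Rpl32l. Except in the last pair, where 3.17% of the copy's 85-base stretches occurred in the main gene, no stretch of a copy occurred in its main gene. Rpl32l has 1 exon and is a processed pseudogene in GENCODE.

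The lowest copies moved with a background level of the libraries. This level averages the olfactory and vomeronasal receptor genes, which are known from sensory neurons of the nose, after 10% of the values are dropped at each end. It was lowest in replicate 1 and highest in replicate 3 of each group, with 0.773, 3.4, 6.89 and 2.77 TPM in young Aβ42+, 0.549, 4.24, 5.47 and 4.49 in young Aβ42-, 1.27, 5.24, 11.6 and 4.98 in old Aβ42+ and 0.328, 0.779, 2.89 and 1.25 in old Aβ42- replicates 1 to 4. Rpl10l stood at 6.77, 18.3, 34.5 and 26 TPM, at 0.875, 19.6, 43.9 and 42.7 TPM, at 18.7, 32.3, 93.2 and 46.9 TPM and at 1.55, 3.75, 41.1 and 17.9 TPM in the same libraries. Rpl39l ran from 2.77 TPM in old Aβ42- replicate 2 to 42.2 TPM in old Aβ42+ replicate 3.

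The Spearman correlation with the background level over the 16 libraries was 0.89 for Rpl10l and Rpl3l, 0.85 for Rpl39l and 0.81 for Rpl32l, and it was also 0.90 for Rps29 and 0.89 for Rps27, both abundant. It was -0.87 for Rpl22l1 and 0.15 for Rps4l, the median over members was 0.30, and 9 members exceeded 0.8. These are descriptions over libraries that share pools and the same total. With the background level as a covariate, the log2 fold change of Rpl39l in Aβ42- against Aβ42+ cells of old mice was 0.09 instead of -1.39. Rpl3l and Rpl22l1 also changed sign there, as given in the last section. The background level averaged 5.77 ± 4.27 TPM in old Aβ42+ and 1.31 ± 1.12 TPM in old Aβ42- libraries, so covariate and sort cannot be told apart. The part of the background in the levels of low or abundant members was not tested.

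**Figure D5:**
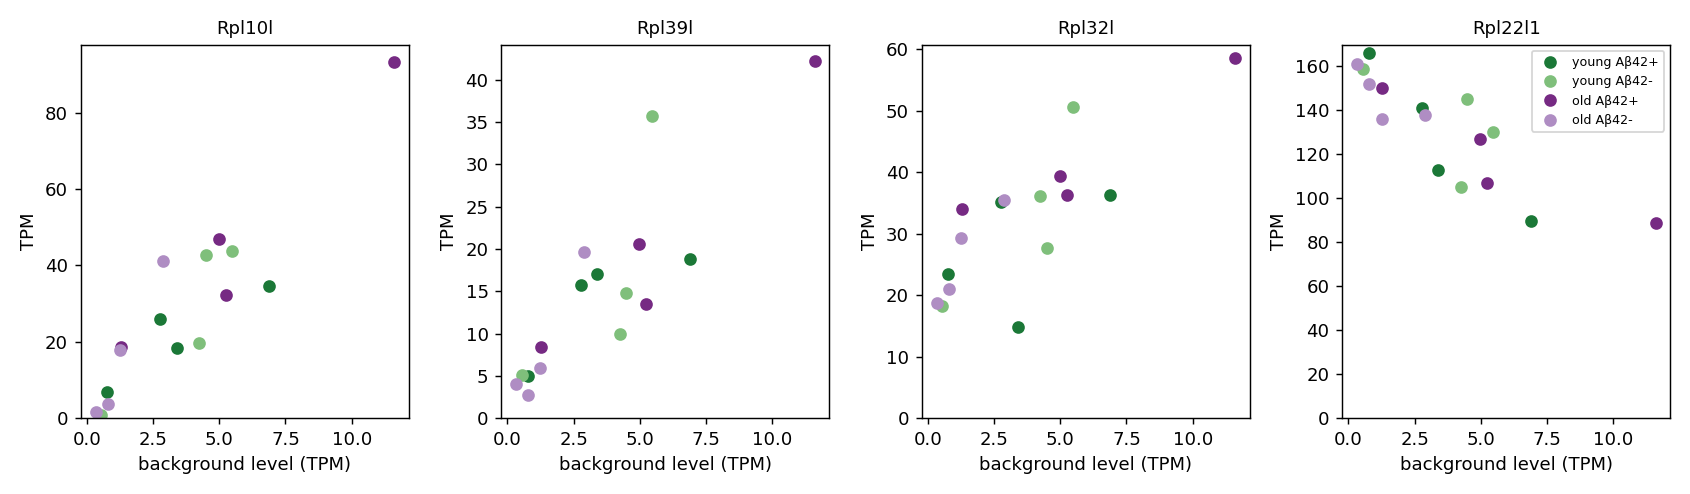
TPM of Rpl10l, Rpl39l, Rpl32l and Rpl22l1 in each of the 16 libraries against the background level of the library, the trimmed mean over olfactory and vomeronasal receptors in TPM, with colours for the 4 groups. The first 3 are highest in old Aβ42+ replicate 3, where the background level is 11.6 TPM, and Rpl22l1 is lowest there at 88.8 TPM.

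Other genes of the translation machinery were read beside the family from lists of known members. The 5 ribosomal proteins outside the symbol rule (Fau, Rack1 and others) had 0 calls in any comparison and summed to 0.0792, 0.0793, 0.0837 and 0.0819 of the family's TPM in the Aβ42+ and Aβ42- cells of young and then of old mice. The 8 genes of elongation and nascent chain handling also had 0 calls, and their ratio to the family was 0.128 ± 0.00486, 0.124 ± 0.00692, 0.123 ± 0.00944 and 0.115 ± 0.00509. The 29 initiation factor genes had 0 calls as well, with 26 below 0 in old against young Aβ42+ microglia and a median log2 fold change of -0.25.

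The 44 ribosome assembly genes, which make and process ribosomal RNA and join the subunits, had a median of -0.35 in that comparison, with 41 below 0 and none called by limma. Under 6 other scalings their median stayed below 0 there and below that of the ribosomal protein genes. The ratio of their summed TPM to that of the family averaged 0.167 ± 0.0258, 0.149 ± 0.032, 0.117 ± 0.0165 and 0.136 ± 0.0124 in the same order. Young Aβ42+ libraries ranged from 0.131 to 0.192 and old ones from 0.0972 to 0.137, so these groups overlapped. Calls were few. Nop10, a protein of the box H/ACA particles that modify ribosomal RNA, went from 66.1 ± 8.68 TPM in young Aβ42- microglia up to 118 ± 25.7 TPM in the old ones (log2 fold change 0.81, adjusted p = 0.0486), and remained called under 1 of 6 other scalings or background settings (adjusted p 0.0371 to 0.185). In old mice Polr1a, the largest subunit of RNA polymerase I, and Bysl, a small subunit assembly factor, were higher in Aβ42- than in Aβ42+ cells, by 1.22 (adjusted p = 0.0301) and 0.87 (adjusted p = 0.0338), where 13% of all genes were called. Under the other scalings Polr1a was called in 3 of 6 and Bysl in 2 of 6, with log2 fold changes above 0 in each.

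Of the 15 regulators of ribosomal protein mRNA translation, 3 were called in the old sorts, 1 in the young sorts and 1 in old against young Aβ42- microglia, where 13%, 1.67% and 2.15% of all genes were called. Eif4ebp1 and Eif4ebp2 are mTOR targets that restrain cap-dependent initiation. Eif4ebp1 rose from 143 ± 19.6 to 221 ± 24.4 TPM from young to old Aβ42- microglia (log2 fold change 0.63, adjusted p = 0.0466) and was higher in Aβ42- than in Aβ42+ cells of old mice (0.88, adjusted p = 0.0358). Eif4ebp2 was higher in Aβ42- cells of young mice, at 52.1 ± 12.2 against 27.7 ± 1.8 TPM (0.86, adjusted p = 0.0431), and of old mice, at 103 ± 26.1 against 38 ± 17.3 TPM (1.49, adjusted p = 0.0338). Mlst8, a subunit of both mTOR complexes, was called in the old sorts alone (1.24, adjusted p = 0.0461). No other gene of this list was called. These calls depended on the scaling. Eif4ebp1 was called under 2 of 6 other scalings in the age comparison and 1 of 6 in the old sorts, Eif4ebp2 under 3 of 6 in the young and 2 of 6 in the old sorts, and Mlst8 under 3 of 6, with log2 fold changes above 0 throughout.

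The 77 mitochondrial ribosomal protein genes, whose products form the separate ribosome of the mitochondrion, had 0 calls in old against young Aβ42+ microglia, 4 higher in old Aβ42-, 2 higher in young Aβ42- than Aβ42+ cells, and 7 higher and 1 lower in Aβ42- than Aβ42+ cells of old mice, against 0.0268%, 2.15%, 1.67% and 13% of all genes called in either direction. Under the 6 other scalings or background settings the number called ranged from 0 to 1, 0 to 7, 0 to 3 and 0 to 9 in these comparisons. Their ratio to the cytosolic family was 0.15 ± 0.0106, 0.151 ± 0.024, 0.143 ± 0.0137 and 0.186 ± 0.0301 in the 4 groups.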

How the data were processed

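The authors trimmed 85-base single reads (Trim Galore 0.4.2, cutadapt 1.9.1), checked them with FastQC 0.11.5, aligned them to mm10 with STAR 2.5.2a, removed duplicates with Picard 1.89, assigned reads to RefSeq genes with featureCounts and deposited TPM values, per the labels and the study's methods. Use of strand or of reads with several alignments is not given in the sources used here. Each of the 16 columns sums to a fixed total, so depth is unknown and tests for read counts were not used.

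Each comparison took its 8 libraries, kept genes that reached 1 TPM in 4 or more, and fitted log2(TPM + 1) by limma 3.58.1 (R 4.3.3, trend option, two-sided). P-values were adjusted over all genes by Benjamini-Hochberg, with 0.05 as the limit. The interaction used 1 model of 16 libraries. The exact permutation tests compared 4 libraries with 4. Each of the 4 replicates was a separate pool of mice. The methods were tested on simulated data with independent errors. Those data held no shared pools and no shared background level, so that test does not cover these features.

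Genes named were called members, the 3 highest and 3 lowest fold changes per comparison, the 5 highest and 5 lowest by mean TPM, and fixed lists of well-known members and paralogues. Genes without overlap, those called without replicate 3, Rpl3, Rps24, Rps29, Rpl22l1 and the translation genes named outside the family were added after their values were seen. Some genes under these rules are not reported here. Counts of members without overlap under other scalings, and translation lists under them, were added after the data were seen. The members and lists were chosen with earlier results of these data known. Same-numbered sorts are from 1 pool by the sample titles. Across genes, their deviations from group means correlated at 0.41 to 0.63 for replicates 1 and 3 and at -0.06 to 0.06 for replicates 2 and 4, also between young and old libraries, which come from different mice. Sequences were aligned with Biopython 1.88, and symbols were matched to RefSeq (GRCm38.p6) and GENCODE vM21.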

Additional observations from a re-analysis of the deposited data

Results flagged for a closer look

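Of 60 groups of 4 libraries examined over 15 quantities, 2 held a library far from the other 3 by Dixon's test, and chance marks about 1 in 20 groups, or 5%. The ratio of Rps4l to Rps4x was 0.379 in young Aβ42+ replicate 3, against 0.473 to 0.487 in the other 3. Rpl10 was at 738 TPM in old Aβ42- replicate 3, against 610 to 624 TPM in the others, and this library decided whether Rpl10 was called in old against young Aβ42- microglia.

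The ratio of small to large subunit TPM moved in opposite directions between the sorts of young and old pools, higher in Aβ42- cells in 4 of 4 young pools and lower in 4 of 4 old pools. The change in old minus that in young pools was -0.0278, and -0.0187 without replicate 3. This difference was not tested.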

How the results depend on the processing

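In old against young Aβ42+ microglia and in the young sorts, 0 members were called under each of 21 alternatives. In old against young Aβ42- microglia the count of 1 was 0 with upper quartile factors, median-of-ratios factors, the background level subtracted or the background level as a covariate, and 0 to 2 when libraries were left out, 2 without old Aβ42- replicate 3. Leaving out young Aβ42- replicate 2, 3 or 4, old Aβ42- replicate 1, 2 or 4, or both libraries of replicate 1 each ended the call of Rps4l. In the old sorts the count of 0 was 4 with the replicate block, 1 (Rps4l) with all 16 libraries in the fit, and 0 to 26 when libraries were left out, 3 without old Aβ42+ replicate 1 and 3 without old Aβ42- replicate 3. In the interaction 5 members were called with the replicate block, where 41.7% of all genes were called. With the pools as a block, an alternative chosen after seeing the data, 1 member and 36.9% of all genes were called. Leaving out libraries gave 0 to 0 in the interaction. The replicate block changed no other count of members. The cause was not tested.

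The mean summed TPM with small RNA and receptor genes taken out of the total was 31958 in young Aβ42+, 31770 in young Aβ42-, 34038 in old Aβ42+ and 30343 in old Aβ42- microglia. With the background level subtracted it was 32135 and 32343 in the young Aβ42+ and Aβ42- groups and 36880 in old Aβ42+, and 28860 in old Aβ42-.

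Of 504 fold changes of the 24 gene results under alternatives, 464 kept direction and side of the threshold, 11 (Rps4l) lost the call, 8 (Rpl10l and Rpl39l in the old sorts) gained it and 21 reversed. In old against young Aβ42- microglia Rpl31 was at -0.02 after quantile normalization, and Rpl39l at 0.09 and Rpl10l at 1.53 with the background covariate. With libraries left out in the young sorts, Rpl10l ran from -0.71 to 0.82 (0.06, 0.82 and 0.38 without Aβ42+ replicate 3, Aβ42- replicate 1 or replicate 1), Rpl32l from -0.00 (without Aβ42+ replicate 2) to 0.50 and Rpl36a from -0.02 (without replicate 3) to 0.27. In the old sorts quantile normalization gave 0.33 for Rpl3l, -0.23 for Rpl7a and -0.08 for Rpl7l1, background subtraction 0.33 for Rpl3l, and the background covariate 0.09 for Rpl39l, 0.25 for Rpl3l, -0.14 for Rpl7a, -0.28 for Rpl7l1 and -0.03 for Rpl22l1. With libraries left out there, Rpl7a ran from -0.12 to 0.11 and Rpl7l1 from -0.07 to 0.35, below 0 without old Aβ42+ replicate 3 or without replicate 3.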
